A study of Mus musculus with 5 samples.

Results

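The genes followed here handle fatty acids at the wall of blood vessels: Fabp4, Fabp5, Cd36, Gpihbp1, Lpl and Pparg. They were chosen by symbol, with earlier results of these data known, and are 6 of the 27998 genes in the deposited count tables. They were measured in the endothelial cells (ECs) of the temporomandibular joint (TMJ) disc, the fibrous pad of the jaw joint. A cell was taken as an EC when at least 3 of 6 genes (Pecam1, Cdh5, Emcn, Flt1, Egfl7 and Ptprb) had a UMI, a molecule counted once by its barcode. This rule found 3214 ECs among 51688 cells. Mural cells (MCs, 1125 cells), macrophages (MPhs, 1350 cells) and stromal cells (38504 cells) were taken by the same kind of rule and served for comparison.

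Single-cell RNA sequencing was done on 5 libraries, 1 per condition, all from mice given in the labels as WT C57BL/6. The 4 normal libraries came from untreated discs of mice aged 3 days (3 d), 3 weeks (3 w), 16 weeks (16 w) and 78 weeks (78 w). The injured library came from discs wounded with a needle (pinched in the words of the labels, punctured in those of the study's methods). Those methods give mice aged 5 weeks at injury and taken 2 weeks after that, at 7 weeks. By that age no normal library matches it. Another part of the methods gives a shorter time after injury for mice taken for histology. The study's methods describe the injury model in Myh11-CreER+; Tm fl/- reporter mice, and whether such mice went into this library is not given in the sources used here. Pups of both sexes went into the 3 d suspension, the older normal mice were males, and the number of animals behind each library is not given in the sources used here. Age cannot be told apart from library, and injury cannot be told apart from library or from the depth of sequencing.

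The libraries held 8467 to 15169 barcodes and 31585993 to 125427849 UMIs, with the fewest of both in the injured library. The EC class held 944 cells at 3 d, 761 at 3 w, 574 at 16 w, 658 at 78 w and 277 in the injured library, or 6.31%, 8.12%, 6.54%, 6.51% and 3.27% of the cells. Median UMIs per EC were 5043 to 6623.5 in the normal libraries and 2319 in the injured one. Any pair of libraries shared at most 0.415% of the barcodes of either. The summed level of the 6 EC genes was 3094 to 4911 CPM (UMI counts scaled to a common total for each class and library) in ECs and 9.2 to 19.0 CPM in stromal cells, as the rule requires. Stromal genes also gave UMIs in ECs, and their 6-gene sum was 4857 to 10029 CPM there against 15636 to 42868 CPM in stromal cells. The 6 adipocyte markers, which matter because fat cells express most of the genes followed, summed to at most 1.11 CPM in ECs, and Plin1, Cidec and Retn had 0 UMIs in ECs of all 5 libraries. Erythroid genes summed to 2928 CPM in ECs at 3 d and to 9.6 to 39.8 CPM in the other libraries.

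Fatty acids travel in the blood mostly as triglycerides inside lipoprotein particles. The enzyme lipoprotein lipase (Lpl) frees them at the vessel wall, where the endothelial protein GPIHBP1 carries the enzyme to the lumen and holds it there. CD36 takes fatty acids up into the cell, the fatty acid binding proteins FABP4 and FABP5 carry them inside it, and the nuclear receptor PPARγ (Pparg) switches on many genes of this pathway, Fabp4 and Cd36 among its known targets. Capillary ECs of heart, muscle and fat are known for this machinery, while parenchymal cells such as muscle and fat cells are the known sources of LPL.

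In GRCm38 the genes lie apart, except that Fabp5 (chr3:10012548-10016607, plus strand) and Fabp4 (chr3:10204088-10208576, minus strand) are neighbours on chromosome 3. Cd36 lies at chr5:17781690-17888801 (minus strand), Gpihbp1 at chr15:75596628-75599481, Lpl at chr8:68880491-68907448 and Pparg at chr6:115360951-115490399 (all plus strand). Because the assay counts 3′ ends, the last 500 bases of each gene's transcripts were compared with those of all other genes. No run of 90 bases was shared with another gene for any of the 6.

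RefSeq promoter windows (GRCm38.p6, 250 bases before to 50 after a start) were matched for 2 of the 6 genes, Cd36 with 1 start and Pparg with 3. They are shown because PPARγ is known to bind DNA at the letters AGGTCA repeated with 1 base between. Capitals mark the single half-site, AGGTCA on the printed strand or TGACCT for the other strand, in the 3 windows that hold one.
Cd36, chr5:17835847-17836146, minus strand: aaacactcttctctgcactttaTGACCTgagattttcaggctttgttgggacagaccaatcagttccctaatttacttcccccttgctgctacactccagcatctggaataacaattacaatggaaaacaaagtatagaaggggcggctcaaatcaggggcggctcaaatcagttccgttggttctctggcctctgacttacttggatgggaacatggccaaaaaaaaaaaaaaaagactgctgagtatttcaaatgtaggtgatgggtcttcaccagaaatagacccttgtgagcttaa
Pparg, chr6:115360894-115361193, plus strand: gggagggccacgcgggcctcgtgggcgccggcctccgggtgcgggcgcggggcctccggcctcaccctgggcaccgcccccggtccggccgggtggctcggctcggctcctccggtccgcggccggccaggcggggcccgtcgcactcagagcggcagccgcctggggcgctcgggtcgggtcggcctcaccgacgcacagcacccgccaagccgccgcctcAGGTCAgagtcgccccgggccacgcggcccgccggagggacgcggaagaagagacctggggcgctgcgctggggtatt
Pparg, chr6:115362099-115362398, plus strand: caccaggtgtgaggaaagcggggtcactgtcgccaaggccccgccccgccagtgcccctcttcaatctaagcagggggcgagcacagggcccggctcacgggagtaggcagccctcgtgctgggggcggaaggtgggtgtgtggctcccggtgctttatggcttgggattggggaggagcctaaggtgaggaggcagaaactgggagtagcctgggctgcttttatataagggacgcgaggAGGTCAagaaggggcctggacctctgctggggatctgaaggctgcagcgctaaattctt
The half-site begins 228 bases before the Cd36 start and 28 and 9 bases before the 2 Pparg starts printed, and the third Pparg window (chr6:115421816-115422115) holds none. A half-site on either strand occurs in 16.3% of all 32817 promoter windows. The full repeat of 2 half-sites with 1 base between occurs in 0.0396% of all windows and in none of these. These are matches of letters in the windows only.

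The first comparison asked how the 6 genes of the fatty acid pathway differ between ECs and the other cells of the disc. All 6 were higher in ECs than in stromal cells, by log2 differences of 1.78 to 8.72. Fabp4 and Gpihbp1 were also higher in ECs than in MCs and MPhs. Cd36 was higher in MPhs than in ECs, and Lpl was higher in MCs than in ECs.

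The binding protein gene Fabp4 was high in ECs of every library. Its level was 3370 CPM at 3 d, 2317 at 3 w, 2262 at 16 w, 3079 at 78 w and 1163 in the injured library. MCs gave 58.3, 388, 174, 280 and 117 CPM in the same order, MPhs 10.9 to 29.7 CPM and stromal cells 3.28 to 17.4 CPM. The lowest EC level lay above the highest level of each other class. ECs held 88.6% to 90.4% of all Fabp4 UMIs in the normal libraries and 63.4% in the injured one, where cells that met no class rule held 21.0%. The log2 difference (± SE over 5 libraries, edgeR) was 7.87 ± 0.59 against stromal cells (adjusted p = 9.1e-09), 3.45 ± 0.49 against MCs (adjusted p = 2.87e-05) and 6.89 ± 0.58 against MPhs (adjusted p = 3.21e-08).

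The related Fabp5 was much less restricted. In ECs it gave 465, 58.7, 128, 134 and 35.4 CPM in the same order of libraries. MCs gave 559 CPM and stromal cells 263 CPM at 3 d, and 9.35 to 48.7 CPM and 10.0 to 26.0 CPM in the other libraries. MPhs spanned 13.4 to 169 CPM. ECs had the highest level of the 4 classes at 16 w and 78 w, MCs at 3 d, and MPhs at 3 w and in the injured library. Fabp5 was higher in ECs than in stromal cells by 1.94 ± 0.58 (edgeR, adjusted p = 0.0111, in 5 of 5 libraries), and this call was lost without the 16 w library (1.46, adjusted p = 0.0529) or the 78 w library (1.74, adjusted p = 0.0637). Against MCs (1.24, adjusted p = 0.145) and MPhs (0.31, adjusted p = 0.722) the edgeR test was not passed. Without the 3 d library the difference from MCs was 1.79 (edgeR, adjusted p = 0.0349).

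Cd36, the fatty acid uptake receptor and also a scavenger receptor of MPhs, had 2 high classes. ECs gave 304, 270, 212, 231 and 43.1 CPM in the order of the libraries given above. MPhs gave 468, 597, 292, 653 and 260 CPM, above ECs in each library. MCs reached at most 65.6 CPM and stromal cells at most 2.02 CPM. ECs held 57.0%, 48.4%, 64.7%, 32.1% and 6.26% of the Cd36 UMIs of the 5 libraries and MPhs 35.1%, 48.6%, 25.6%, 60.9% and 75.9%, shares that also depend on how many cells of each class a library holds. The edgeR log2 difference was 7.48 ± 0.65 against stromal cells (adjusted p = 6.66e-08; 6.74 with cells thinned to 1000 UMIs and 8.07 without the injured library) and 2.64 ± 0.56 against MCs (adjusted p = 0.00134, higher in 4 of 5 libraries, with 43.1 against 43.7 CPM in the injured one). Against MPhs it was -1.30 ± 0.48 (adjusted p = 0.0398, lower in 5 of 5 libraries). That last call was lost without the 3 w, 16 w or 78 w library (adjusted p = 0.0571, 0.0684 and 0.129), with the direction kept.

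Gpihbp1, the carrier of lipoprotein lipase, gave nearly all of its UMIs in ECs of the normal libraries. ECs gave 680, 128, 82.8, 94.8 and 58.6 CPM in library order. MCs and MPhs had 0 UMIs at 3 w, 16 w and 78 w, which allows up to 2.51 CPM (3 counts). MCs had 10 UMIs at 3 d and 0 in the injured library, where 0 allows up to 14.6 CPM, and MPhs had 6 UMIs in each of those libraries. Stromal cells gave at most 2.98 CPM. Of all Gpihbp1 UMIs, ECs held 92.3% to 98.5% in the normal libraries and 73.6% in the injured one. The edgeR log2 difference was 8.72 ± 0.50 against stromal cells (adjusted p = 3.79e-10), 9.36 without the 3 d library and 7.86 with cells thinned to 1000 UMIs. The tests against MCs (adjusted p = 8.32e-08) and MPhs (adjusted p = 3.33e-08) were passed with no fold given because most of those sums are 0.

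Lpl, the lipase itself, was found in all 4 classes. ECs gave 17.8, 77.4, 66.4, 87.5 and 9.96 CPM in library order, from 156, 476, 276, 363 and 9 UMIs. MCs gave 167, 88.9, 186, 129 and 72.9 CPM, above ECs in each library. MPhs spanned 25.9 to 120 CPM and stromal cells 6.55 to 27.7 CPM. Stromal cells, the most numerous class, held 37.5% to 66.8% of the Lpl UMIs, and ECs 3.39% to 22.9%. Lpl was higher in ECs than in stromal cells by 1.78 ± 0.42 (edgeR, adjusted p = 0.00248, in 4 of 5 libraries), with 3 d the exception. It was lower in ECs than in MCs, with a log2 difference of -1.27 ± 0.43 (edgeR, adjusted p = 0.03), a call lost without the 16 w library (adjusted p = 0.119) or the injured one (adjusted p = 0.100). Against MPhs the difference was -0.24 (edgeR, adjusted p = 0.706).

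Pparg, the receptor gene, was low everywhere. ECs gave 4.80, 12.2, 6.5 and 10.6 CPM in the normal libraries from the youngest to the oldest, from 27 to 75 UMIs, and 0 UMIs in the injured library, which allows up to 3.32 CPM. MCs (4.42 to 14.4 CPM in the normal libraries) and MPhs (3.15 to 17.2 CPM) overlapped with ECs, and stromal cells stayed at 0.52 to 0.98 CPM. Pparg was higher in ECs than in stromal cells by 2.94 ± 0.34 (edgeR, adjusted p = 1.75e-06, in the 4 normal libraries). The differences from MCs (-0.13, adjusted p = 0.830) and MPhs (-0.51, adjusted p = 0.256) did not pass the edgeR test.

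**Figure D1:**
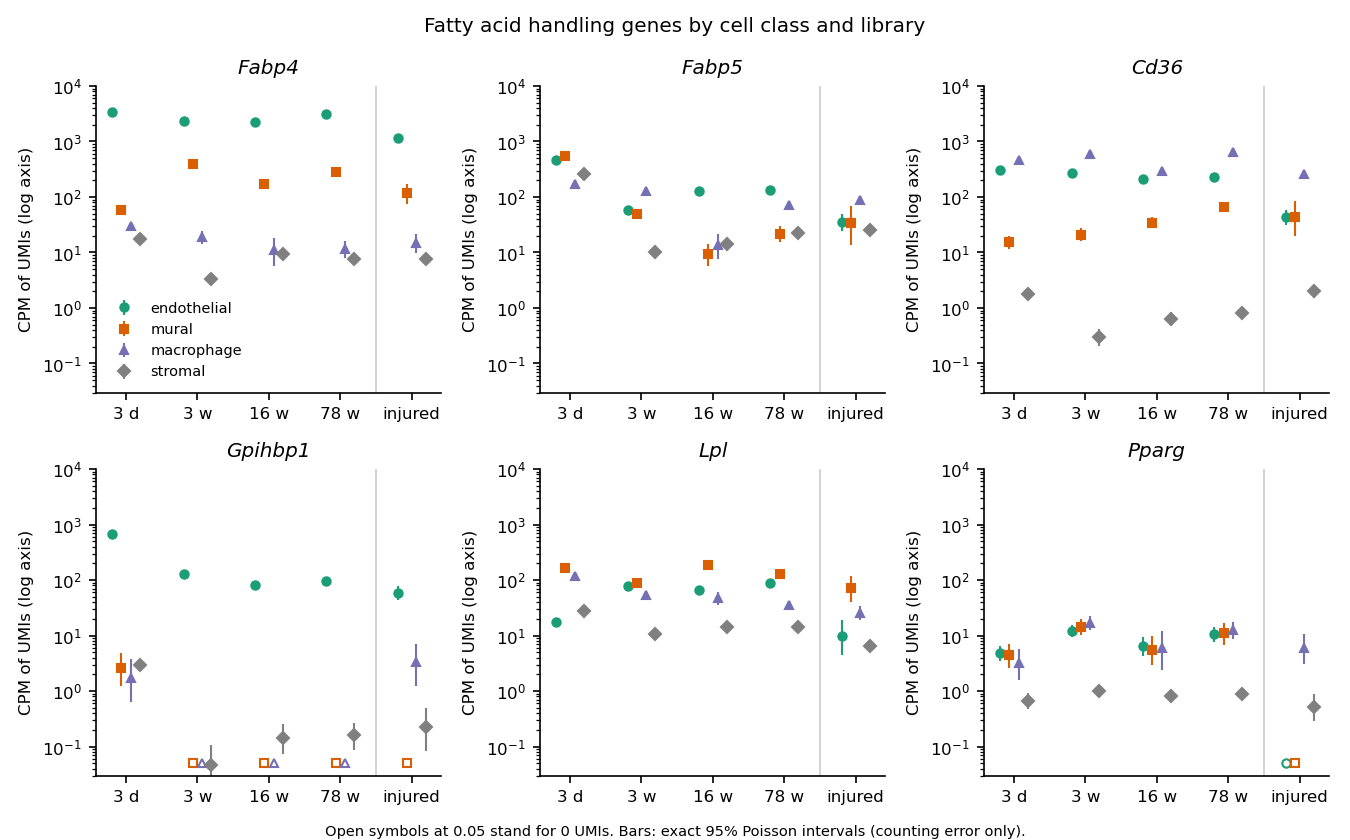
Level of each gene (CPM of UMIs, log axis) in ECs, MCs, MPhs and stromal cells of the 5 libraries, with exact 95% Poisson intervals for counting error only and open symbols for 0 UMIs. Fabp4 and Gpihbp1 are highest in ECs of every library, Cd36 is higher in MPhs than in ECs, and Lpl is higher in MCs than in ECs.

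A gene was called when the edgeR adjusted p over all 12020 genes tested was under 0.05 and the fold at least 2. All 6 genes passed the low-count filter. By this rule 6 of 6 were higher in ECs than in stromal cells, where 12.7% of all genes tested were. Against MCs 3 of 6 were higher (Fabp4, Cd36 and Gpihbp1; 9.13% of all genes) and 1 was lower (Lpl; 9.28%). Against MPhs 2 of 6 were higher (Fabp4 and Gpihbp1; 11.9%) and 1 was lower (Cd36; 12%). The study names Fabp4 among genes of its EC cluster, so its direction is not independent of these libraries. All 6 genes were chosen with earlier results of these data known, so these counts are not independent of the libraries either.

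**Figure D2:**
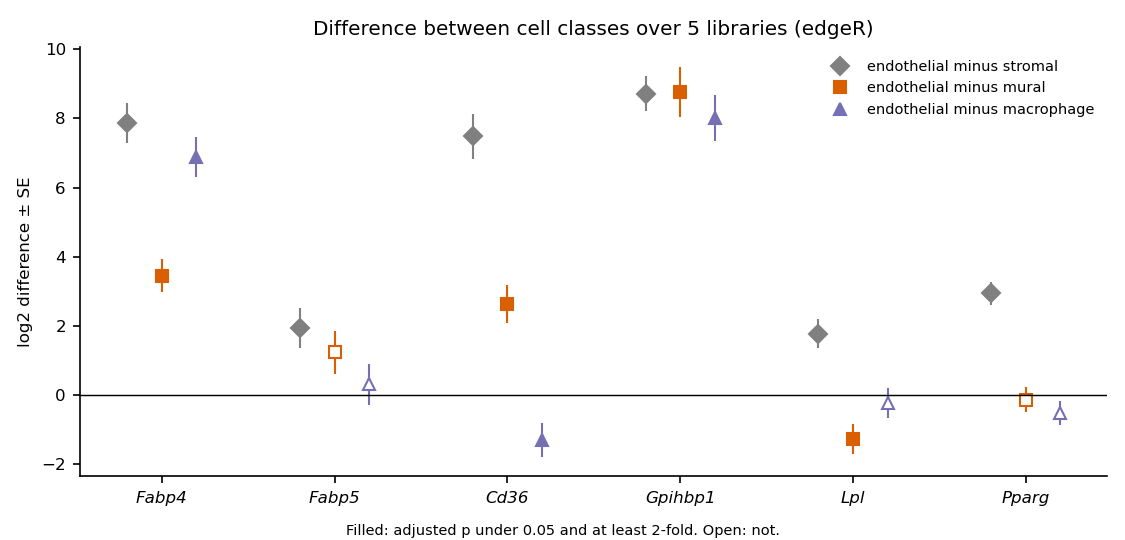
Log2 difference ± SE (edgeR, 5 libraries) of each gene between ECs and stromal cells, MCs or MPhs, filled where the adjusted p is under 0.05 and the fold at least 2. All 6 genes are filled against stromal cells, and the filled points below 0 are Cd36 against MPhs and Lpl against MCs. Open points below 0 are Lpl against MPhs and Pparg against MPhs and MCs.

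The share of cells with a UMI was compared after every cell had been thinned at random to 1000 UMIs. Fabp4 was found in 64.2% of ECs at 3 d, 50.7% at 3 w, 46.1% at 16 w, 52.6% at 78 w and 35.7% in the injured library (95% exact binomial interval 29.8% to 42.0% for the last, over 252 cells). In stromal cells it was found in 0.397% to 1.80%. These shares can understate what free RNA gives, because the stromal rule leaves out cells with 2 or more EC markers. Unthinned EC shares were 81.0%, 62.0%, 58.7%, 63.7% and 46.2%. ECs too shallow to thin, and left out, numbered 34, 6, 6, 11 and 25.

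Gpihbp1 was found in 42.5% of thinned ECs at 3 d and in 12.6%, 8.10%, 8.04% and 6.35% at 3 w, at 16 w, at 78 w and after injury, against at most 0.353% of stromal cells. Cd36 was found in 23.8%, 18.4%, 15.5%, 13.1% and 3.97% of ECs and in at most 0.231% of stromal cells. For Fabp5 the EC shares were 29.5% at 3 d and 3.17% to 10.5% in the other libraries, and stromal cells reached 17.6% at 3 d. Lpl was found in 0.794% to 6.49% of ECs and 0.754% to 2.22% of stromal cells, and at 3 d the EC share (1.10%) was at or below the stromal share (2.22%). Pparg was found in at most 1.59% of thinned ECs, and in 0 of 252 in the injured library, which allows a share of up to 1.45% (upper bound of the exact 95% interval). Between 18.6% of thinned ECs at 3 d and 56.7% in the injured library had a UMI of none of the 6 genes.

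Lpl was unevenly spread among ECs. The 5% of ECs with the most Lpl UMIs held 83.3%, 70.0%, 95.3% and 81.5% of them in the normal libraries from the youngest to the oldest. At 16 w, 1 cell held 106 of the 276 UMIs. For Fabp4, with 1051 to 29490 UMIs, the same share was 32.4% to 37.7% over the 5 libraries. For Pparg, with few UMIs, it was 72.0% to 100% over the normal ones. This share also depends on the number of UMIs. With counts nearer to those of Lpl, Gpihbp1 had 64.8% at 16 w (344 UMIs) and 66.2% at 78 w (393 UMIs). Fabp5 had 54.3% at 3 w (361 UMIs).

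The next comparison asked how the pathway in ECs differs with age, from the newborn to the aged disc. With 1 library per age there is no test, and each ratio of CPM is given with an exact 95% interval that covers counting error only. Gpihbp1 and Fabp5 were lower at 3 w, 16 w and 78 w than at 3 d, and Lpl was higher. Pparg was higher at 3 w and 78 w. Fabp4 and Cd36 stayed within 2-fold of their 3 d levels.

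Between 3 d and 3 w, Gpihbp1 was 5.32-fold lower (ratio 0.188, 0.174 to 0.202) and Fabp5 7.92-fold lower (ratio 0.126, 0.113 to 0.141). Lpl was 4.34 times higher (3.62 to 5.24) and Pparg 2.54 times higher (1.72 to 3.8). Past 2-fold were thus 2 of the 6 upward and 2 downward. Of all genes with at least 100 UMIs in the EC library with the higher level, 16.4% were past 2-fold higher and 22.6% past 2-fold lower. Pparg, with fewer UMIs, is not among them. The Lpl ratio rests on 156 UMIs at 3 d, of which 110 remained when ECs that also met the MC or MPh rule were left out, and the ratio was then 5.91 (4.79 to 7.35). With every cell thinned to 1000 UMIs and classes called again, the Lpl ratio was 21.9 (7.18 to 109, from 3 UMIs at 3 d). That call kept 503 ECs at 3 d and 489 at 3 w, so the set of cells changed as well as the depth. With classes called from all UMIs, 1.10% of thinned ECs at 3 d and 6.49% at 3 w had an Lpl UMI. As a mean over cells the Lpl ratio was 10.1.

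From 3 w to 16 w, Fabp4 was level (ratio 0.976, 0.951 to 1.002), Fabp5 was 2.17 times higher (1.90 to 2.49), and Gpihbp1 (0.647), Cd36 (0.785), Lpl (0.857) and Pparg (0.532) were lower. Past 2-fold were 4.49% of all genes upward, Fabp5 among them, and 5.5% downward. From 16 w to 78 w none of the 6 was past 2-fold, where 1.19% of all genes were higher and 0.539% lower. The ratios were 1.05 to 1.63, and the intervals of Fabp5, Cd36, Gpihbp1 and Pparg included 1.

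Over the whole span, 78 w against 3 d, Gpihbp1 was 7.18-fold lower (ratio 0.139, 0.125 to 0.154) and Fabp5 3.46-fold lower (0.289, 0.264 to 0.316). Lpl was 4.91 times higher (4.06 to 5.96) and Pparg 2.21 times higher (1.41 to 3.46). Fabp4 (0.914, 0.895 to 0.933) and Cd36 (0.760, 0.705 to 0.818) were slightly lower. Across all genes 12.4% were past 2-fold higher and 16.7% lower. In order of EC level, Fabp4 ran 3 d, 78 w, then 3 w and 16 w, whose difference did not exceed counting error, and Gpihbp1 ran 3 d, 3 w, then 78 w and 16 w, which likewise did not differ beyond counting error.

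The other classes did not all follow ECs. Fabp5 was also lower at 78 w than at 3 d in MCs (ratio 0.0391), stromal cells (0.0843) and MPhs (0.424). Lpl, higher in ECs at 78 w, was lower there in MCs (0.772, 0.664 to 0.896), MPhs (0.293) and stromal cells (0.520). Fabp4 was 4.80 times (4.10 to 5.64) and Cd36 4.28 times (3.12 to 5.93) higher in MCs at 78 w than at 3 d. Summed EC markers in MCs were 57.7 CPM at 3 d and 62.0 CPM at 78 w, and the part of EC RNA in these MC values was not tested.

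The injured library was compared with both normal libraries on either side of its age. All 6 genes were lower in injured ECs than in ECs at 3 w and at 16 w. Of the 5 with a UMI there, Cd36 and Lpl lay furthest below, and both were past 2-fold lower in both comparisons. Cd36 was 43.1 CPM (39 UMIs), 6.25-fold below 3 w (ratio 0.160, 0.113 to 0.220) and 4.91-fold below 16 w (0.204, 0.144 to 0.281). Lpl was 9.96 CPM (9 UMIs), 7.78-fold below 3 w (0.129, 0.0584 to 0.246) and 6.67-fold below 16 w (0.150, 0.0679 to 0.289). The 16 w level of Lpl rests on few cells. The cell with the most held 106 of the 276 Lpl UMIs, and 29 of the 574 ECs held 95.3% of them. The interval against 16 w covers counting error only and makes no allowance for this uneven spread. The ratio without that cell was not computed, so the size of the fold against 16 w is uncertain. In the other classes the Lpl level was also lower in the injured library, by smaller folds than in ECs. In MCs it was 72.9 CPM (15 UMIs) against 88.9 at 3 w and 186 at 16 w, and the difference from 3 w did not exceed counting error. In MPhs it was 25.9 CPM against 53.1 and 46.9, and in stromal cells 6.55 CPM against 10.6 and 14.0.

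Fabp4 was at 0.502 (0.471 to 0.534) of its 3 w level and 0.514 (0.482 to 0.548) of its 16 w level. Gpihbp1 was at 0.458 (0.340 to 0.606) and 0.709 (0.520 to 0.948), and Fabp5 at 0.603 (0.406 to 0.866) and 0.277 (0.188 to 0.396). Pparg had 0 UMIs, and the upper bound of its exact 95% interval was 0.343 of the 3 w level and 0.673 of the 16 w level. Past 2-fold lower against 3 w were Cd36, Gpihbp1 and Lpl, and against 16 w Fabp5, Cd36 and Lpl. By its upper bound Pparg was past 2-fold lower against 3 w, and a 2-fold difference from 16 w could not be told. Of all genes, 20% were past 2-fold lower and 2.94% higher against 3 w, and 18.9% and 2.78% against 16 w. That background leans downward. A gene enters it by its UMIs in the library with the higher level, so a gene higher in the shallower injured library needs a higher CPM to enter. Among the genes with 100 UMIs expected in the injured library itself, chosen after seeing the data, 12.6% were lower and 8.27% higher against 3 w (8.97% and 7.44% against 16 w).

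Over those genes the median log2 ratio was -0.18 against 3 w (1379 genes) and -0.05 against 16 w (1304 genes). Relative to the median of those genes, Cd36 was at 0.181 and 0.211, Lpl at 0.146 and 0.155, Fabp4 at 0.569 and 0.533 and Gpihbp1 at 0.520 and 0.734. Lpl and Gpihbp1, with fewer UMIs expected, are not among those genes. The medians of all genes with 100 UMIs in the library with the higher level were -0.51 and -0.47, and relative to these Cd36 was at 0.228 and 0.282, Lpl at 0.183 and 0.208, Fabp4 at 0.715 and 0.712 and Gpihbp1 at 0.653 and 0.981. In the other classes the Cd36 ratios against the 2 ages lay on the same side of 1 within a class, but the side differed between classes. In stromal cells Cd36 was 6.65 and 3.14 times higher in the injured library, at levels of at most 2.02 CPM. In MPhs it was at 0.436 and 0.891, and in MCs at 2.08 and 1.26 with intervals that include 1. Summed mural markers in ECs were 363 CPM in the injured library, 405 at 3 w and 195 at 16 w. EC markers themselves summed to 3094 CPM in injured ECs against 4150 and 4911 CPM, and the part of these values in the result was not tested.

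**Figure D3:**
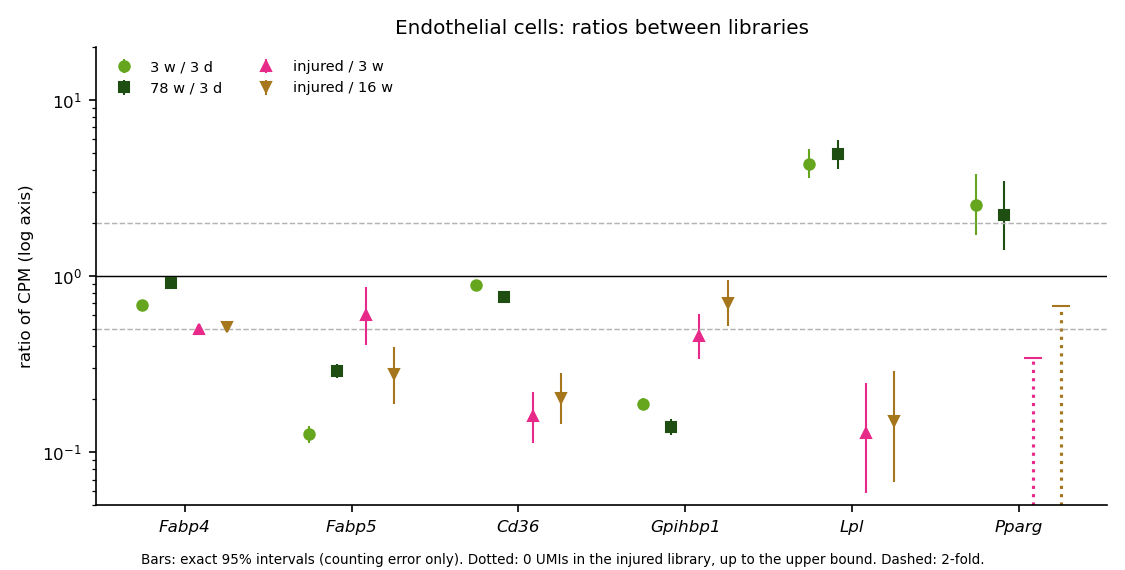
Ratio of CPM in ECs (log axis) for 3 w and 78 w against 3 d and for injured against 3 w and 16 w, with exact 95% intervals for counting error only; dotted lines reach the upper bound where the injured library had 0 UMIs, and dashed lines mark 2-fold. Gpihbp1 and Fabp5 lie below 1 at 3 w and 78 w, Lpl lies above 1 at both ages, and in the injured library Cd36 and Lpl lie lowest of the 5 genes with a UMI.

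ECs were next divided by genes outside the 6 that were followed. Each cell was placed by the first rule it met, in the order lymphatic list, arterial list and Selp. Selp (P-selectin) is an adhesion molecule of venular endothelium. Cells with a UMI of Selp that met neither list rule numbered 46, 171, 142, 216 and 53 in library order. Cells with at least 2 of 8 arterial-list genes, such as Gja5 and Sox17, numbered 370, 429, 244, 233 and 85. The lymphatic list (2 of 5 genes, Prox1 among them) gave 24, 20, 1, 19 and 2 cells, and 504, 141, 187, 190 and 137 ECs remained. Median UMIs per cell were 5244.5, 3922, 4314, 3990 and 2026 in the remaining ECs, the lowest of the subsets in each library. Selp cells had 7267, 6030, 6854.5, 6087 and 2499, and arterial-list cells 8831, 6530, 6091, 4974 and 2850. The subset tests were not repeated on thinned cells, and the part of depth in the differences between subsets was not tested.

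Selp cells carried less of the lipase system and more Fabp4 than the remaining ECs. Gpihbp1 was 438, 25.0, 5.92, 3.3 and 20.2 CPM in Selp cells and 665, 196, 134, 158 and 77.1 CPM in the remaining ECs, lower in 5 of 5 libraries. Lpl was 32.6, 8.58, 2.54, 10.6 and 0 CPM in Selp cells against 19.9, 141, 56.2, 126 and 9.35 CPM. By these values it was lower in 4 of 5 libraries, with 3 d the exception. The Selp values rest on 16, 11, 3, 16 and 0 UMIs. In the injured library 0 UMIs allow up to 24.9 CPM (exact 95% Poisson bound), so the direction there could not be told. The edgeR log2 difference was -2.29 ± 0.40 for Gpihbp1 (adjusted p = 0.000873) and -3.01 ± 0.50 for Lpl (adjusted p = 0.000529). Without the 3 d library these were -3.71 and -3.72. Fabp4 was 3885, 3645, 3468, 3816 and 3108 CPM in Selp cells against 3025, 2360, 2172, 2883 and 655 CPM, higher in 5 of 5 libraries. Its difference of 0.93 ± 0.25 passed the edgeR p threshold (adjusted p = 0.0249) but not the 2-fold limit, and was 1.01 (adjusted p = 0.000649) without the 3 d library.

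By the full rule 2 of 6 genes were lower in Selp cells and 0 higher, where 1.13% of 10009 genes tested were lower and 1.6% higher. Cd36 (-0.47, adjusted p = 0.327), Fabp5 (0.23, adjusted p = 0.557) and Pparg (-0.98, adjusted p = 0.235) did not pass the edgeR test there. Arterial-list cells did not differ by the rule in any of the 6 (0.53% of genes higher and 0.11% lower). At an unadjusted p under 0.05 none of the 6 passed there either, with the smallest adjusted p 0.638 (edgeR, Fabp5). For the lymphatic list, which had 20 cells or more in only 2 libraries, none of the 6 was called (0.759% higher and 0.35% lower). There Fabp4, Fabp5 and Lpl had an unadjusted p under 0.05 in edgeR, with adjusted p of 0.167, 0.238 and 0.443. Without the 3 d library, which leaves 1 lymphatic-list sum that is assumed to vary like the others, Fabp4 (-2.62), Fabp5 (-3.52) and Cd36 (-2.11) were called lower there (edgeR, adjusted p = 0.000424, 0.0404 and 0.029).

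Within the subsets the ratios with age and injury were not all alike. At 78 w against 3 d Lpl was at 9.38 (7.08 to 12.6) in arterial-list cells, 6.35 (4.72 to 8.59) in the remaining ECs and 0.323 (0.151 to 0.691) in Selp cells, where it rests on 16 UMIs in each library. Gpihbp1 was lower at 78 w in arterial-list cells (0.152), remaining ECs (0.237) and Selp cells (0.00752, from 5 UMIs at 78 w). Fabp4 in the injured library, against 3 w, was at 0.853 (0.773 to 0.938) in Selp cells, 0.494 (0.440 to 0.554) in arterial-list cells and 0.277 (0.244 to 0.314) in the remaining ECs. Against 16 w the same ratios were 0.896, 0.608 and 0.301, and the difference between subsets was not tested. Cd36 was lower in the injured library in each of the 3 subsets, at 0.204, 0.231 and 0.0763 of its 3 w level, from 7, 20 and 12 UMIs. Its injured levels were 47.2, 61.8 and 28.1 CPM, and those at 16 w 95.5, 247 and 269 CPM. In Selp cells the 95% Poisson intervals of these levels overlapped (19.0 to 97.2 CPM injured and 78.7 to 115 CPM at 16 w).

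**Figure D4:**
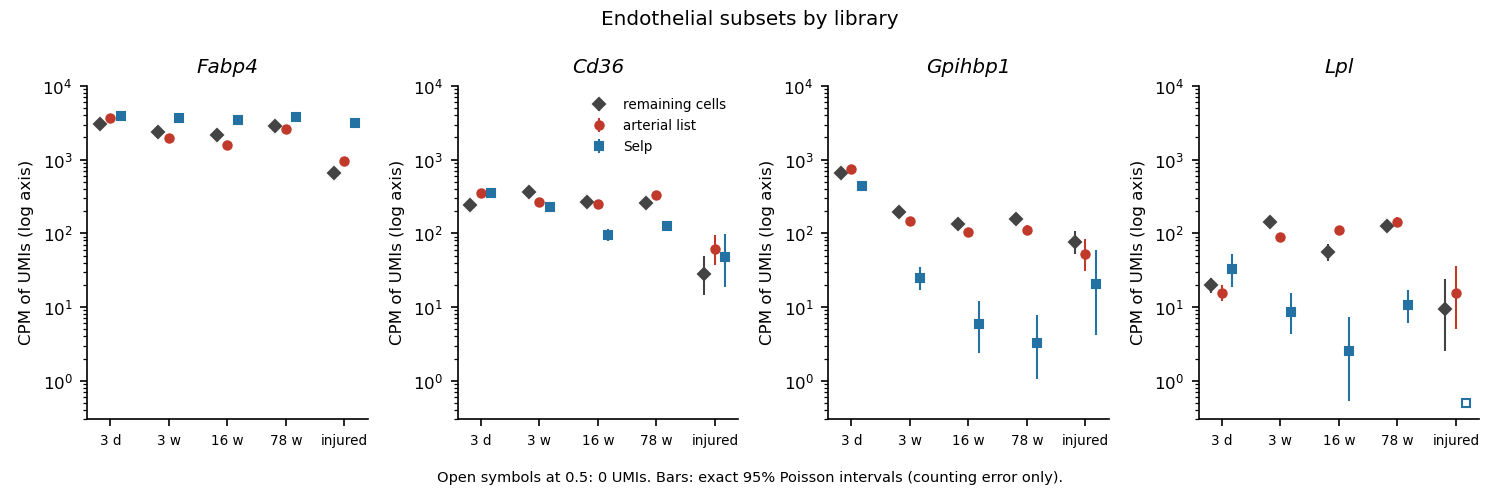
CPM of 4 genes (log axis) in remaining ECs, arterial-list cells and Selp cells of the 5 libraries, with exact 95% Poisson intervals for counting error only. Selp cells lie lowest for Gpihbp1 in every library, and their Fabp4 stays between 3108 and 3885 CPM while that of the remaining ECs reaches down to 655 CPM in the injured library.

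A wider list of 59 lipid genes by role, which includes the 6, was used to set them among the rest of the pathway. It too was chosen with earlier results of these data known. Of the 53 others, 49 could be tested, and against stromal cells 11 were higher in ECs, 8 lower and 30 not called. Their median log2 difference was -0.21, where the median of all genes tested was 0.00. Against MCs the counts were 8 higher, 7 lower and 34 not called, and against MPhs 11, 10 and 28. Of all genes tested, 12.7% were higher in ECs and 11.3% lower against stromal cells. The shares were 9.13% and 9.28% against MCs and 11.9% and 12% against MPhs.

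The regulators included the EC transcription factor genes Tcf15 and Meox2, which are known to form a pair that drives endothelial Cd36 and Lpl. Tcf15 was 43.2 to 86.9 CPM in ECs and 0.14 to 0.99 CPM in stromal cells, a difference of 7.08 ± 0.52 (edgeR, adjusted p = 7e-09). Meox2 was 48.7 to 125 CPM in ECs and 1.65 to 12.0 CPM in stromal cells, 4.03 ± 0.34 higher (edgeR, adjusted p = 4.47e-08). Neither differed from MCs by the test: Tcf15 was 30.4 to 84.6 CPM in MCs (0.10, edgeR, adjusted p = 0.895) and Meox2 38.9 to 164 CPM (0.05, edgeR, adjusted p = 0.942). With Meox1 and Pparg, 4 of the 10 regulators tested were higher in ECs than in stromal cells and 0 lower, where 12.7% of all genes tested were higher and 11.3% lower. Against MCs 2 regulators were higher and 1 lower (9.13% and 9.28% of all genes), and against MPhs 4 and 2 (11.9% and 12%).

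Among the vessel wall genes, Scarb1, the HDL receptor, was 49.8 to 154 CPM in ECs and 5.35 to 9.0 CPM in stromal cells (3.75 ± 0.26, edgeR, adjusted p = 3.78e-09). With Lpl and Gpihbp1, 3 of 9 were higher, and Lrp1, Angptl2 and Vldlr were lower. For this role and those that follow, the shares of all genes tested were 12.7% higher and 11.3% lower. In uptake and transport the caveolin genes Cav1 (2.21) and Cav2 (1.93) were higher on the log2 scale along with Fabp4, Fabp5 and Cd36, while Fabp3 (-1.74), the muscle binding protein, and the transporter gene Slc27a1 (-1.40) were lower. Storage and activation had 4 of 12 higher, with Lipe, the hormone-sensitive lipase, at 2.86 ± 0.20 (edgeR, adjusted p = 3.46e-09), and 1 lower (Dgat2). Of the 9 oxidation genes 0 were called in either direction against stromal cells (edgeR). Of 6 synthesis genes 1 was higher (Elovl5) and 2 were lower (Fasn and Scd1).

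**Figure D5:**
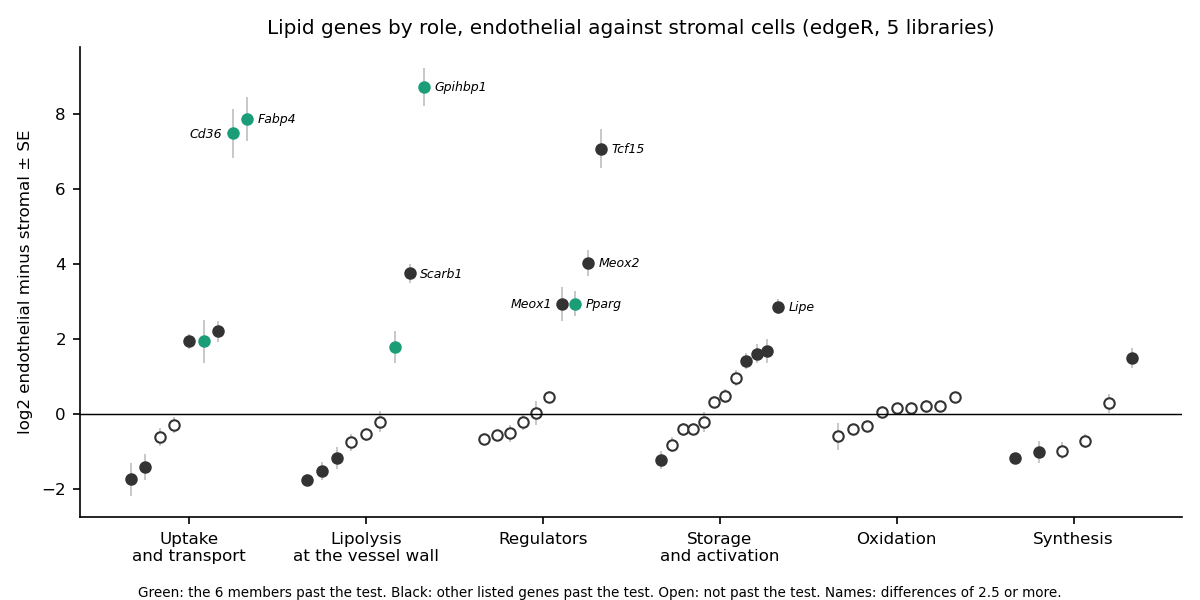
Log2 difference ± SE (edgeR, 5 libraries) between ECs and stromal cells for 55 lipid genes in 6 roles, filled where called, green for the 6 genes followed and named at differences of 2.5 or more. Fabp4, Cd36, Gpihbp1 and Tcf15 lie above 7, and the oxidation genes lie near 0.

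With age, 7 of 35 other list genes with enough UMIs were past 2-fold higher in ECs at 3 w than at 3 d and 2 were lower (Cav1 and Vegfb), beside 16.4% of all genes higher and 22.6% lower. The 7 included Angptl4, a secreted inhibitor of lipoprotein lipase (26.3 to 111 CPM, ratio 4.23, 3.64 to 4.94), Pnpla2, the first lipase of fat droplets (ratio 4.09), Lipe (4.08) and the droplet coat gene Plin2 (3.05). Angptl4 and Plin2 were lower again at 16 w, at 0.0908 and 0.305 of their 3 w levels. At 78 w against 16 w, 0 of 26 were past 2-fold in either direction, beside 1.19% of all genes higher and 0.539% lower. In the injured library 0 were higher and 9 of 26 lower against 3 w, and 0 higher and 9 of 23 lower against 16 w. Of all genes, 2.94% were higher and 20% lower against 3 w, and 2.78% and 18.9% against 16 w. The median log2 ratio of these list genes was -0.70 and -0.80, where that of all genes was -0.51 and -0.47. Lower in both were Scarb1 (0.407 and 0.323), Lipe (0.489 and 0.365), Plin3 (0.308 and 0.213, from 9 UMIs) and Cpt1a (0.321 and 0.219, from 5 UMIs). The counts of 0 higher rest on a limit, because a gene higher after injury needed at least 100 UMIs in injured ECs. Below it, Angptl2 (2.21, 1.54 to 3.14), Angptl4 (2.08, 1.14 to 3.66) and Dgat2 (3.58, 1.13 to 10.8) were past 2-fold higher against 16 w. They had 49, 19 and 7 UMIs, and against 3 w were at 1.31, 0.189 and 0.898.

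Likeness to other genes was described by Pearson's r of log2(CPM + 1) over the 20 sums of 4 classes and 5 libraries, which share their libraries and differ in depth. Of 14718 genes, Fabp4 was most like Hecw2 (r = 0.98), Sdpr and Flt1 (0.96 each), Flt1 being a gene of the EC rule. Gpihbp1 was most like Stap2, Gimap4 and Gja5 (0.98 each). Cd36 was most like Lyn (0.95), Arhgap18 and Tm6sf1 (0.94 each), and Lpl like Inpp4b (0.85), Epb41l2 (0.83) and Pik3r1 (0.82). For Fabp5 the nearest were Cdca7l (0.88), Plscr3 (0.87) and Ssbp4 (0.86), and for Pparg Gab2 (0.86), Irf8 (0.85) and Specc1l (0.84). Among the 6 genes the highest values were 0.80 for Fabp4 with Gpihbp1 and 0.67 for Cd36 with Pparg.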

How the data were processed

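The deposited files hold whole-number UMI counts per gene and cell barcode, which the authors made from 10x Genomics 3′ v2 libraries of discs digested with Pronase and Collagenase P. The submitters' processing notes give mm10 and Cell Ranger 3.1, while the headers of the count files name Cell Ranger 4.0.0. The 78 w file is named for another age, and the labels were used. Every matrix lists 27998 genes, of which 98.7% have an identifier in GENCODE M21.

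Barcodes were kept above 200 UMIs where mitochondrial genes took up to 30% of the UMIs. No doublet caller was run. ECs that also met the MC rule (2 to 20 per library) or the MPh rule (2 to 10 per library) were kept, and left out as an alternative. A class needed 3 of 6 marker genes. MCs and MPhs also needed fewer than 3 markers of ECs and of each other. Stromal cells also needed fewer than 2 markers of each other class. They needed fewer than 3 markers of each of muscle, erythroid, Schwann and leukocyte cells as well. At 3 d 35.1% of cells met no rule.

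UMIs were summed per class and library and tested with edgeR 4.0.16 (R 4.3.3): TMM, filterByExpr, quasi-likelihood, library as a block, Benjamini-Hochberg adjustment over all genes. SE was computed back from the F statistic and is approximate. The study's own tests over cells were not used, because cells are not replicates. The tests between classes compare cells of the same 5 libraries, whose ages differ. Ages and injury have 1 library each and no test, and intervals are exact and cover counting error only. Subsets with fewer than 20 cells in a library were left out there. The text names the 6 genes, those of a list of 59 lipid genes that were called (at most 8 per comparison), the 3 genes most like each, and class markers. The 6 genes and all lists were chosen with earlier results of these data known. The scripts were tested on simulated data.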

Additional observations from a re-analysis of the deposited data

Results flagged for a closer look

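Fabp4, Cd36 and Lpl went opposite ways in different classes between 3 d and 78 w, a contrast with 1 library per age in which the difference between classes was not tested. Fabp4 at 78 w was at 0.914 of its 3 d level in ECs and at 4.80 in MCs. Cd36 was at 0.760 in ECs and at 4.28 in MCs. The lower EC level of Cd36 was not shared by all subsets. It was 243 CPM at 3 d and 258 at 78 w in the remaining ECs, and 351 and 336 in arterial-list cells. In Selp cells it was 357 and 125 CPM. The part of the mix of subsets in the EC ratio was not tested. Lpl was at 4.91 in ECs, and at 0.772 in MCs, 0.293 in MPhs and 0.520 in stromal cells.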

How the results depend on the processing

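Of the tests of the 6 genes under alternatives, 332 kept their direction and side of the threshold, 9 lost a call, 5 gained one and 11 turned direction. Of the ratios, 178 moved by no more than counting error and 74 moved further. Some turned direction. In the remaining ECs alone Cd36 was 243 CPM at 3 d, 368 at 3 w and 258 at 78 w. In all ECs it was lower at 3 w and at 78 w than at 3 d. DESeq2, its size factors, no low-count filter, the other EC rules and the stricter cell filter left the counts of the 6 genes called between classes as reported. With cells thinned to 1000 UMIs before classes were called, fewer genes could be tested, and those called higher and lower were 781 and 754 against MPhs, 549 and 501 against MCs and 720 and 710 against stromal cells, with 0 of the 6 lower against MPhs and MCs and Pparg not among the genes tested. Leaving out 1 library gave 0 to 1 of the 6 lower against MPhs (0 without 3 w, 16 w or 78 w) and 0 to 1 against MCs (0 without 16 w or injured).

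In Selp cells, leaving out 1 library gave 0 to 1 of the 6 higher (1, Fabp4, without 3 d), 104 to 206 genes higher and 58 to 186 lower. In arterial-list cells 6 to 17 genes were lower, and 20 with cells of 2 classes left out. In lymphatic-list cells the EC rule of 4 markers gave 47 higher and 9 lower, and leaving out 1 library gave 60 to 136 higher, 8 to 133 lower and 0 to 3 of the 6 lower (3, Fabp4, Fabp5 and Cd36, without 3 d). For 16 w against 3 w, thinned cells gave 0 of the 6 past 2-fold higher and 1 lower, the mean over cells gave 0 and 2, and the remaining ECs alone gave 2 lower. For 78 w against 16 w, thinned cells and the mean over cells each gave 1 higher, and the remaining ECs alone 2.

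The differences that turned were not called in either fit. Against MPhs they were Fabp5 (-0.34 to 0.87 when 1 library was left out, below 0 without 16 w) and Lpl (0.47 thinned, -0.62 to 0.33 when 1 library was left out, above 0 without 3 d). In arterial-list cells they were Fabp4 (-0.17 to 0.023 when 1 library was left out, above 0 without 3 w or 16 w), Cd36 (-0.0068 with 4 markers) and Lpl (-0.065 with 4 markers, -0.021 with cells of 2 classes left out, -0.26 to 0.35 when 1 library was left out, below 0 without 16 w or 78 w). In lymphatic-list cells it was Pparg (-0.87 with 4 markers). The cause of these changes was not tested. No paired analysis was possible because each condition has 1 library, and the library is already the block in the tests between classes. Depth limits Lpl (9 UMIs) and Pparg (0 UMIs) in injured ECs most.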
